A study of Mus musculus with 74 samples.

Results

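The integrated stress response genes described here are 10 genes, Atf4, Atf5, Atf3, Ddit3, Ppp1r15a, Trib3, Chac1, Asns, Stc2 and Fgf21, taken from the 24940 genes of the expression tables by exact match of the gene symbol. All 10 were found in each expression table. The 2 merged-region acetylation tables assigned 31 of 73866 regions to 9 of them, and the BCL6 peak list assigned 13 of 10925 peaks to 6 of them. The series asked how the transcriptional repressor BCL6 acts in mouse quadriceps (C57BL/6), and 57 of its 74 samples have values in the 7 tables used.

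Poly(A) RNA was measured in 5 knockouts (AEC-Esr Cre (+):Bcl6 fl/fl, given tamoxifen), in 4 Cre-negative controls (Bcl6 fl/fl, given tamoxifen) and in 4 oil controls (AEC-Esr Cre (+):Bcl6 fl/fl, given oil). The oil controls carried the Cre but received no tamoxifen, and the Cre-negative controls received tamoxifen but carried no Cre. For translation, 4 RiboTag knockouts (AEC-Esr Cre (+):Bcl6 fl/fl; RiboTag (+), tamoxifen) were set against 4 RiboTag controls (AEC-Esr Cre (+); RiboTag (+), tamoxifen) in both ribosome footprints and poly(A) RNA, so Cre, RiboTag and tamoxifen were common to both groups. RiboTag is an allele that makes Cre-active cells carry HA-tagged ribosomes, which were collected here with HA beads. The labels list the HA antibody for the RiboTag poly(A) libraries too, and the material behind that RNA (all of the muscle, or tagged ribosomes) is not given in the sources used here. The histone mark H3K27ac, acetylated lysine on histone H3 as found at active regulatory DNA, was compared between tamoxifen-treated knockouts and tamoxifen-treated Cre-negative controls, 3 against 3, in 3 sets of animals. These are an acute series (1 week by the file header), a chronic series (12 weeks) and a series whose animal numbers match those of the poly(A) libraries. Nascent RNA came from wild-type muscle, with 5 animals on the BCL6 inhibitor FX1 and 5 on DMSO, its solvent. BCL6 binding came from 1 wild-type library. Ages are not given in the sources used here, and the cells in which the Cre was active are known only through the name of the transgene.

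Library totals in the file headers ran, rounded, from 6700000 to 7600000 tags for poly(A) RNA, from 18400000 to 28200000 for footprints, from 12400000 to 27000000 for RiboTag mRNA, from 13900000 to 32700000 for nascent RNA and from 7800000 to 23000000 for H3K27ac. Within genes the RiboTag table counts 3248807 to 4370468 footprints and 6499561 to 13045854 mRNA tags per library. All 15 muscle fibre markers examined passed the filters on low values in each RNA comparison. Whole-gene Bcl6 values, which do not separate the floxed exons, were lower in knockouts in poly(A) RNA (log2 change -0.23, adjusted p = 0.0134 against Cre-negative; -0.31, adjusted p = 0.00264 against oil) and in footprints (-1.12, adjusted p = 0.00201). In RiboTag mRNA the Bcl6 change was 0.14 (adjusted p = 0.84).

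In the integrated stress response, kinases that sense amino acid lack, misfolded protein, haem lack or double-stranded RNA phosphorylate the initiation factor eIF2. General translation then slows, while a few mRNAs with upstream open reading frames, Atf4 the best known, are translated more. ATF4 and its partner factors bind C/EBP-ATF response elements and activate genes of amino acid supply, redox control and feedback, and in skeletal muscle the response is known from mitochondrial disease, fasting and unloading. BCL6 is a zinc-finger repressor that recruits corepressors to its binding sites.

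The promoters of 3 members are printed because the results below turn on these genes: Stc2, where BCL6 binding and acetylation were found at the start site, and Chac1 and Asns, which changed in RNA or in footprints and carry the ATF4-type element. On mm10 the gene Stc2 spans chr11:31359441-31370061 (minus strand), Chac1 chr2:119351242-119354327 (plus strand) and Asns chr6:7675171-7693182 (minus strand). Each sequence is the RefSeq promoter on build GRCm38.p6, 250 bases before to 50 bases after the RefSeq start, read on the strand of the gene. That start is the gene start given above for Stc2 and Chac1, while for Asns it lies 27 bp upstream of it. Capitals mark matches to TGATGNAA, the core of the C/EBP-ATF response element, on either strand. They are Stc2 (chr11:31370012-31370311, minus strand), Chac1 (chr2:119350992-119351291, plus strand) and Asns (chr6:7693160-7693459, minus strand).
Stc2: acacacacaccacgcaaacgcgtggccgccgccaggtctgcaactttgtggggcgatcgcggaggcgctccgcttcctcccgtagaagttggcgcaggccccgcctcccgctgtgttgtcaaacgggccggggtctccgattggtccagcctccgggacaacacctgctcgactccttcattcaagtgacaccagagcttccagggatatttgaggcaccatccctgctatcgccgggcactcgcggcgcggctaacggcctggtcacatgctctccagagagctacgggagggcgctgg
Chac1: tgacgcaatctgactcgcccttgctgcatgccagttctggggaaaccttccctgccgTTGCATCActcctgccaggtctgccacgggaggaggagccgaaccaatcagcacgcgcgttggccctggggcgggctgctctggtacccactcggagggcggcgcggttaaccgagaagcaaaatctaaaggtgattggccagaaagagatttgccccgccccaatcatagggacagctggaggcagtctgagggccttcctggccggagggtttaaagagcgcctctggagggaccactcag
Asns: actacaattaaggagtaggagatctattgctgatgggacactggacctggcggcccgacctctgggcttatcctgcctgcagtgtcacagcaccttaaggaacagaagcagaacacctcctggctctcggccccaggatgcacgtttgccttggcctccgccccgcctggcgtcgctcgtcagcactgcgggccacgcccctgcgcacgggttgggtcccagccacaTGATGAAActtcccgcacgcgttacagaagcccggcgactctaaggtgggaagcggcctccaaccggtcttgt

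Counting the RefSeq start base as 0, the match in Asns is TGATGAAA at -23 to -16, and that in Chac1 is TTGCATCA, the reverse-strand form, at -193 to -186. Atf3 (-110 to -103) and Fgf21 (-139 to -132) hold TTGCATCA as well, and Trib3 holds TTACATCA at 14 to 21. In all, 5 of 11 member promoters (10 genes, Atf5 with an extra start) held TGATGNAA, against 3.97% of 32851 mouse promoters of the same length. The core TTCNNNGAA, shared by BCL6 and STAT factors, was found in 0 of the 11 member promoters, against 8.3% of all. The Stc2 window has neither core, so its letters are all in lower case, although a BCL6 peak overlaps it. A match is a description of the letters and not a bound site.

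Stc2 had the largest change of the members in each of the 4 knockout comparisons of RNA and footprints. It encodes stanniocalcin-2, a secreted glycoprotein that in mice and humans inhibits the protease PAPP-A and thereby keeps IGF bound to its binding proteins. In poly(A) RNA the deposited log2 values of Stc2 were 7.19, 7.05, 7.38, 7.27 and 7.09 in knockouts, against 6.76, 6.83, 6.60 and 6.58 in Cre-negative controls. Every knockout lay above every control, and Stc2 rose by 0.50 (SE 0.0664, limma adjusted p = 0.000214). In the table with the oil controls the same knockouts stood at 7.01 to 7.39, against 6.56, 6.47, 6.47 and 6.39 in oil controls, a rise of 0.70 (SE 0.0664, adjusted p = 9.52e-06). The groups again did not overlap. The transform behind these values is not named, and the authors' deposited tables give Stc2 log2 fold changes of 0.67 against Cre-negative and 1.66 against oil. Both comparisons share the 5 knockouts. Against oil, where 23.4% of all genes passed, 7 of 7 tested erythroid markers were raised too (median 0.112). Against Cre-negative, where 15.3% passed, none of 7 was called (median -0.0139). In the oil comparison 3 of 7 Schwann cell markers rose as well. Of 15 muscle fibre markers 4 rose and 3 fell there, and of 10 endothelial markers 2 fell. The part of these markers in the Stc2 values was not tested. In bulk muscle RNA fewer cells of a type and less RNA per cell cannot be told apart.

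In the RiboTag animals Stc2 rose in both mRNA and footprints. The changes here are log2 folds of counts, a scale unlike that of the limma changes of deposited log2 values in poly(A) RNA. Stc2 mRNA stood at 41.6, 69.7, 38.3 and 67.3 CPM, counts scaled to the size of the library, in knockouts, against 7.46, 7.82, 7.57 and 8.07 CPM in controls. Its log2 change was 2.81 (SE 0.207, edgeR adjusted p = 1.66e-05), a 7.03-fold rise. Footprints on Stc2 stood at 65.4, 72.8, 64.3 and 79.5 CPM in knockouts, against 12.4, 8.81, 6.87 and 11.8 CPM in controls. The footprint change was 2.81 as well (SE 0.173, adjusted p = 1.44e-06), and no control came near a knockout in either library type. The difference between the footprint and mRNA changes, here called translation efficiency, was 0.05 for Stc2 (SE 0.288, adjusted p = 0.938).

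**Figure D1:**
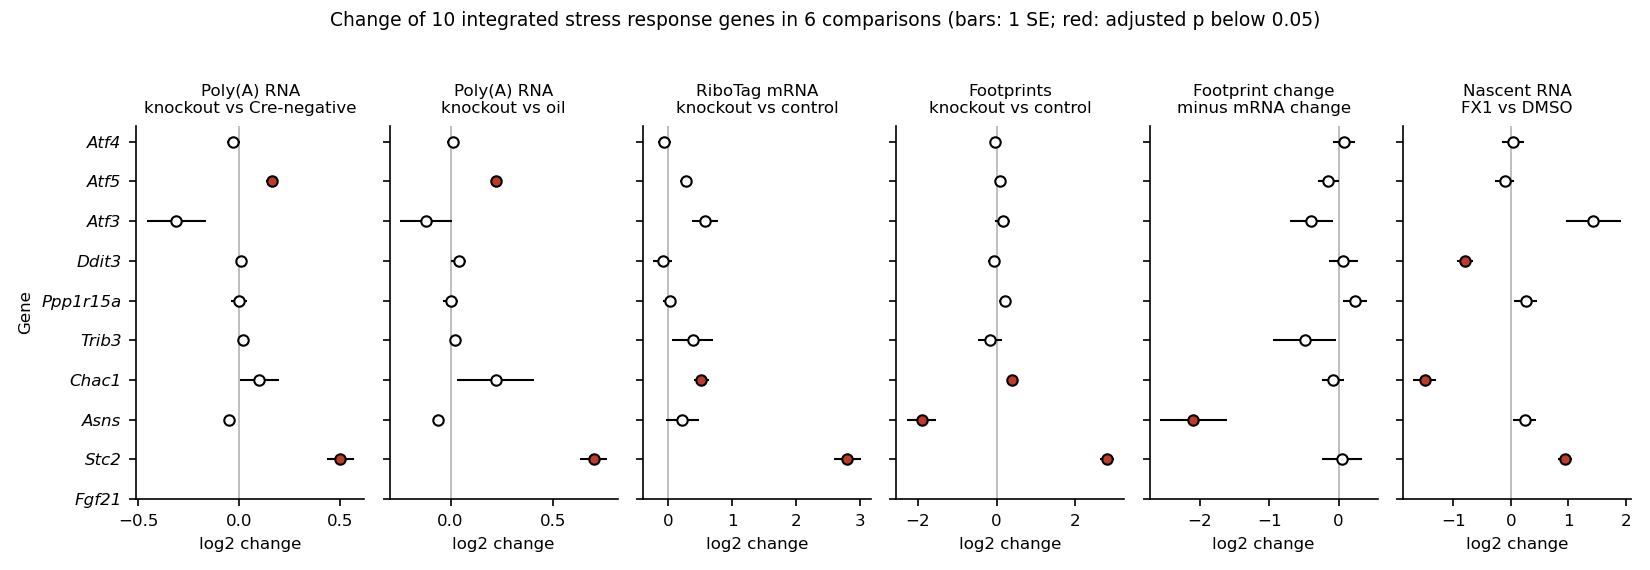
Log2 change of the 10 genes (rows, ordered by role) in 6 comparisons, as the estimate with a bar of 1 SE, filled red where the adjusted p was below 0.05. Stc2 is raised in 5 of the 6 panels, while Atf4 lies between -0.06 and 0.08 in all 6. The poly(A) and nascent panels show changes of deposited log2 values and the others log2 folds of counts, which are unlike scales. Fgf21, and Trib3 in nascent RNA, have no point because they did not pass the filter on low values.

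Read over the whole list, few members moved. Against Cre-negative muscle 2 of 9 tested members were raised (Stc2 and Atf5) and none lowered, where 15.3% of all 13732 genes tested passed in either direction. Against oil the same 2 of 9 were raised, with 23.4% of 13754 genes passing. In RiboTag mRNA 2 of 9 were raised (Stc2 and Chac1), with 4.21% of 14476 genes passing. In footprints 2 were raised (Stc2 and Chac1) and 1 lowered (Asns) of 9, with 26.6% of 12979 genes passing. The median log2 change of the tested members was 0.00519, 0.0218, 0.284 and 0.091 in these 4 comparisons, and that of all genes 0.00228, 0.00266, 0.012 and 0.00397. The poly(A) medians are of deposited log2 values and the RiboTag medians of log2 folds of counts, so their sizes are not on the same scale. The shares of members called in poly(A) RNA and in footprints lie close to the shares of all genes called. Apart from Fgf21, every member passed the filters on low values in the knockout comparisons.

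The transcription factors at the head of the response did not pass the test, with the exception of Atf5 in poly(A) RNA. Atf4, the central activator, stood at 9.94 to 10.04 in knockouts (n = 5) and 9.95 to 10.08 in Cre-negative controls (n = 4) in deposited log2 values. Atf4 mRNA averaged 227 ± 29.5 CPM in RiboTag knockouts and 238 ± 23.2 CPM in controls, and its footprints 103 ± 12.6 and 105 ± 11.9 CPM (SD, n = 4 each). The groups overlapped in each of these measures, and the log2 changes of Atf4 lay between -0.06 and 0.01 in these 4 comparisons. The gene of its relative Atf5, a factor linked to the mitochondrial unfolded protein response, was higher by a small and even amount in poly(A) RNA. Atf5 values were 9.92, 9.89, 9.89, 9.89 and 9.94 in knockouts, against 9.80, 9.75, 9.66 and 9.79 in Cre-negative controls. The rise was 0.16 (SE 0.0299, adjusted p = 0.00254), and 0.22 against oil (SE 0.023, adjusted p = 2.13e-05). No knockout overlapped a control in either table. These tags were counted on both strands, and Atf5 overlaps Nup62 and Il4i1b, so its value is uncertain. Nup62 changed by 0.04 against each control. Il4i1, not itself listed as overlapping Atf5, changed by -0.03 against Cre-negative and -0.16 against oil. In RiboTag mRNA Atf5 had 141 to 177 CPM in knockouts and 124 to 138 CPM in controls, groups without overlap, but its change of 0.28 did not pass (adjusted p = 0.128). Its footprints changed by 0.09 (adjusted p = 0.614).

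Atf3, a stress-induced factor that is also an immediate early gene, was variable. In poly(A) RNA it stood at 8.24 to 8.60 in knockouts and 8.29 to 9.25 in Cre-negative controls, with a change of -0.31 (SE 0.148, adjusted p = 0.193). The change against oil was -0.12 (adjusted p = 0.544). Atf3 passed the test only when 1 control was left out (adjusted p = 0.0357 without Cre-negative P1898, and 0.0438 without oil P1897). In RiboTag mRNA its sign was the other way, with 21.8, 20.1, 21 and 23.8 CPM in knockouts against 11.3, 19.3, 17.7 and 9.25 CPM in controls. These groups did not overlap, yet the change of 0.58 did not pass (SE 0.204, adjusted p = 0.158). In RiboTag mRNA, where 4.21% of all genes passed, 6 of 23 other immediate early genes were raised and none lowered. Among them were Fos (2.45), Fosb (1.99), Egr3 (2.20) and Myc (0.95). In poly(A) RNA 1 of 23 rose and 4 fell against Cre-negative, where 15.3% of all genes passed. Those with the smallest p were Myc (0.44), Dusp1 (-0.28), Fos (-0.36) and Nr4a1 (-0.46). Against oil, where 23.4% of all genes passed, 2 of 23 rose, Myc (0.52) and Egr2 (0.10), and Dusp1 fell (-0.28). Their part in the Atf3 values was not tested. Ddit3, which encodes the pro-apoptotic factor CHOP, averaged 48.4 ± 9.86 CPM in RiboTag knockout mRNA and 51.2 ± 7.12 CPM in controls (SD, n = 4 each). Its changes in the 4 knockout comparisons ran from -0.09 to 0.04, and none passed.

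The feedback genes did not pass in any knockout comparison. Ppp1r15a encodes GADD34, which brings a phosphatase to phosphorylated eIF2 and so restores translation. It had 48.5 to 60.2 CPM of mRNA in knockouts and 46.9 to 59 CPM in controls, and 26.8 to 36.2 and 26.8 to 32.8 CPM of footprints. Its footprint change was 0.21 (SE 0.144, adjusted p = 0.291). Trib3, a pseudokinase that binds ATF4 and AKT, was low in all libraries, with 3.19 to 4.92 CPM of mRNA in knockouts and 1.75 to 4.85 CPM in controls. Its mRNA change of 0.38 had an SE of 0.319 (adjusted p = 0.603).

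Among the ATF4 target enzymes, Chac1 was raised in the RiboTag animals. It encodes a cyclotransferase that degrades glutathione. Chac1 mRNA stood at 118, 132, 152 and 129 CPM in knockouts, against 104, 75.3, 104 and 87.8 CPM in controls. Every knockout was above every control, the change was 0.52 (SE 0.117, adjusted p = 0.0268), and footprints changed by 0.39 (SE 0.096, adjusted p = 0.00972). Footprint levels of Chac1 were 134, 144, 147 and 135 CPM in knockouts, against 94, 100, 121 and 111 CPM in controls. The mRNA call was lost without control RNA_11734 or RNA_11745, or knockout RNA_11718, RNA_11721 or RNA_11722 (adjusted p = 0.0798 at most), while the footprint call held without each of the 8 animals. Poly(A) RNA gave Chac1 changes of 0.10 (SE 0.0958) against Cre-negative and 0.22 (SE 0.188) against oil, neither of which passed (adjusted p = 0.553 and 0.453).

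**Figure D2:**
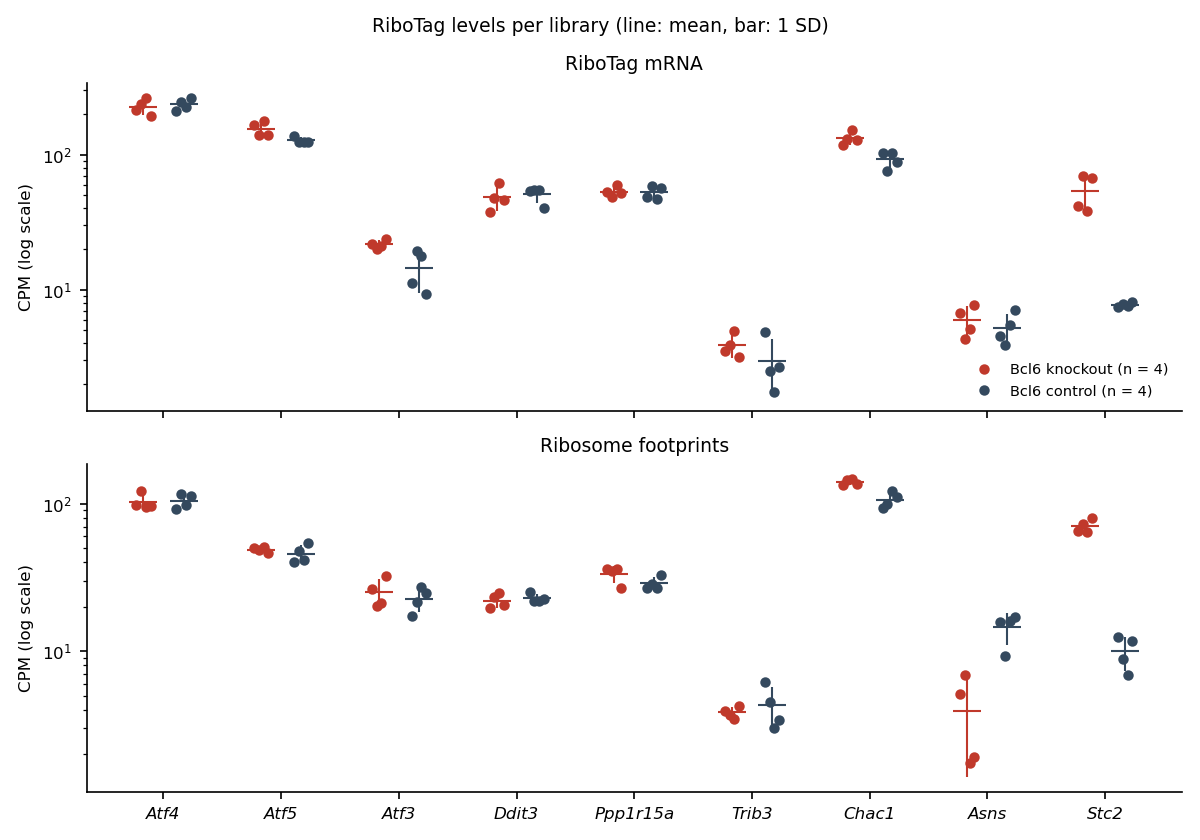
Levels of 9 of the genes in RiboTag mRNA (top) and footprints (bottom) in CPM on a log axis, 1 point per library, with the mean and 1 SD for 4 knockouts (red) and 4 controls (dark). Knockouts lie above controls for Stc2 and Chac1 in both panels, and below them for Asns in footprints alone; Fgf21 is left out because most of its counts were 0.

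Asns was the member whose footprints fell. It encodes asparagine synthetase, which makes asparagine from aspartate and glutamine and is a classic ATF4 target. Its footprints numbered 17, 24, 6 and 8 counts in knockouts, against 66, 39, 58 and 65 counts in controls. In CPM that is 5.12, 6.85, 1.73 and 1.9 in knockouts and 15.8, 9.29, 15.9 and 17.1 in controls. No knockout reached the lowest control, and the change was -1.91 (SE 0.379, edgeR adjusted p = 0.00366). Asns mRNA did not fall, with 6.77, 4.28, 5.14 and 7.75 CPM in knockouts against 4.57, 3.91, 5.44 and 7.06 CPM in controls (change 0.22, SE 0.254, adjusted p = 0.726).

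Accordingly Asns was the 1 of 9 tested members with a called change of translation efficiency, where 9.91% of 14935 genes were called. The median change was -0.0827 for the members and 0.0543 for all genes. The difference between its footprint and mRNA changes was -2.09 (SE 0.482, adjusted p = 0.0137), and the authors' deposited table gives -2.25 (adjusted p = 3.69e-05). The log2 ratio of footprint to mRNA CPM was -0.40, 0.68, -1.57 and -2.03 in the 4 knockouts, against 1.79, 1.25, 1.55 and 1.27 in the 4 controls. The knockouts spread over a wider range than the controls, and animal RPF_11722 was the lowest of them. Without the RPF_11722 and RNA_11722 libraries the difference was -1.68 and no longer passed (adjusted p = 0.0657). In poly(A) RNA the Asns changes were -0.05 (adjusted p = 0.0951) against Cre-negative and -0.06 (adjusted p = 0.144) against oil. The first passed with quantile normalization (-0.06, adjusted p = 0.0474) and the other without oil P1897 (-0.08, adjusted p = 0.0469). The authors' deposited log2 fold changes of Asns are larger, -0.22 against Cre-negative and -0.21 against oil. Neither passed in the authors' test (adjusted p = 0.318 and 0.384).

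Footprints of endothelial, macrophage and fibroblast marker genes were lower in the same knockout libraries. Of all 12979 genes tested in footprints 26.6% passed, with 1412 raised and 2034 lowered. Of 10 endothelial markers 9 fell (median -1.53), with summed levels of 185 to 477 CPM in knockouts and 538 to 987 CPM in controls. Of 13 macrophage and myeloid markers 11 fell (391 to 917 CPM in knockouts, 1156 to 1588 CPM in controls), and of 12 fibroblast and tendon markers 11 fell (2454 to 4318 CPM in knockouts, 4300 to 7093 CPM in controls). Also lower were 4 of 7 satellite cell markers, 5 of 6 adipocyte markers and 3 of 6 Schwann cell markers. Of 3 neutrophil markers tested S100a9 rose (3.65) and Mmp9 fell (-1.16), with summed levels of 32.6 to 224 CPM in knockouts and 41.6 to 51.9 CPM in controls. Of 5 erythroid markers tested 1 fell, and of 2 lymphocyte markers 1. Of the 15 muscle fibre markers 3 fell, with sums of 30681 to 32576 CPM in knockouts and 34782 to 40495 CPM in controls. None of the endothelial, macrophage or fibroblast markers was at 0 in either group. In RiboTag mRNA, where 4.21% of all genes passed, none of these 3 lists had a called member. In translation efficiency, where 9.91% of all genes were called, 9 of 10 endothelial markers (median -1.56) and 10 of 12 fibroblast and tendon markers were lowered. So were 2 of 13 macrophage and myeloid markers, and none of the 3 lists had a raised member. Of the 15 muscle fibre markers 0 were called there (median 0.104). The part of these markers in the fall of Asns footprints and of its translation efficiency was not tested.

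**Figure D3:**
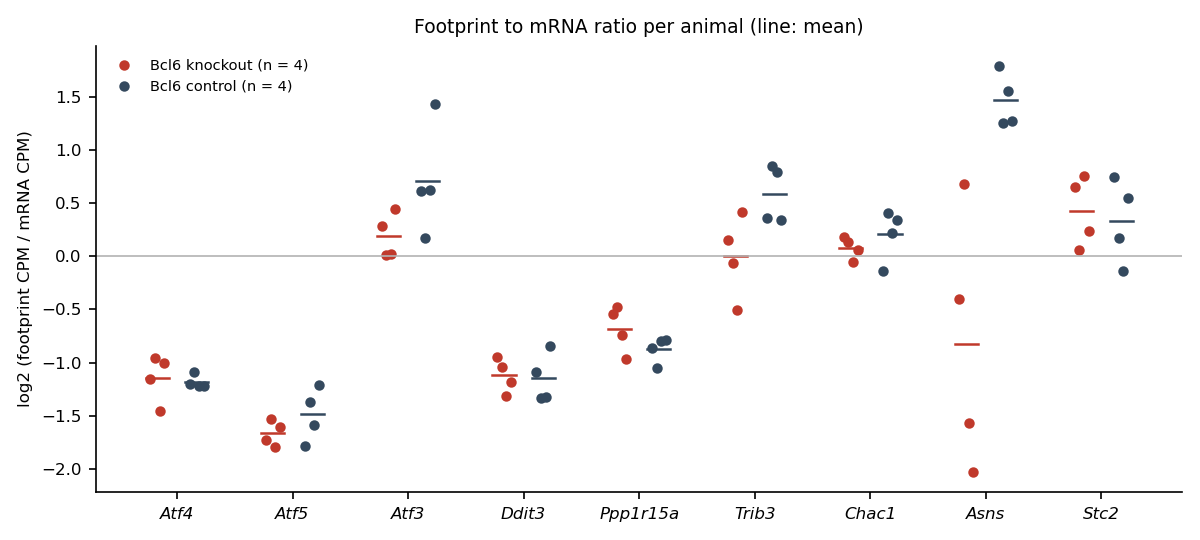
Log2 ratio of footprint CPM to mRNA CPM for 9 of the genes, 1 point per RiboTag animal with a line at the mean, for 4 knockouts (red) and 4 controls (dark). Atf4, Atf5, Ddit3 and Ppp1r15a lie below 0 in all 8 animals, and Asns separates the groups.

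The ratio of footprints to mRNA spanned a wide range among the members. Atf4, Atf5, Ddit3 and Ppp1r15a, whose mRNAs are known to carry upstream open reading frames that limit translation in unstressed cells, had log2 ratios of -1.79 to -0.48 in the 8 animals. The median ratio over all genes lay between -0.02 and 0.14 in the same animals, so all 4 genes were below the median in every animal. Atf4 averaged -1.14 ± 0.227 in knockouts and -1.18 ± 0.0615 in controls, and Ddit3 -1.12 ± 0.161 and -1.15 ± 0.231 (SD, n = 4 each). Stc2 stood at 0.43 ± 0.327 in knockouts and 0.33 ± 0.391 in controls, and Chac1 at 0.08 ± 0.0983 and 0.21 ± 0.245. Counts cover the whole gene, introns and untranslated ends included, so a footprint on an upstream frame and one on the main frame are not told apart. The part of upstream frames, introns or untranslated ends in these ratios was not tested. Atf5 overlaps Nup62 and Il4i1b, Ddit3 overlaps Mbd6 and Mars, and Ppp1r15a overlaps Tulp2. Reads of those genes may not be told apart from theirs, so these ratios are uncertain. At most 5 tags per position were kept. Atf4, Atf5 and Chac1 were among the 1167 genes with over 1 tag per exon base, where that limit can hold counts down.

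Per kilobase of exon the members spanned a wide range of mRNA levels. Tags were counted over the whole gene, introns included, and for Atf5, Ddit3 and Ppp1r15a may include reads of overlapping genes. The order below is therefore approximate. In knockouts Atf4 was highest at 132 ± 17.1 CPM per kb, then Atf5 at 85.9 ± 9.86, Chac1 at 85 ± 8.97 and Ddit3 at 56 ± 11.4 (SD, n = 4). Atf5 and Chac1 overlapped. Stc2 came next at 30.3 ± 9.27 and overlapped Ppp1r15a at 23 ± 2.1, followed by Atf3 at 11 ± 0.807. Asns at 3.13 ± 0.817 overlapped Trib3 at 1.9 ± 0.367. In controls the order was Atf4 (138), Atf5 (70.5), Chac1 and Ddit3 (both 59.2), Ppp1r15a (22.7), Atf3 (7.29), Stc2 (4.33), Asns (2.74) and Trib3 (1.44), all in CPM per kb. Stc2 thus had rank 5 of the 10 genes in knockouts and rank 7 in controls, and no knockout value of Stc2 overlapped that of Atf3. Fgf21, a hormone that stressed muscle can release, was last in both groups. It had 0 or 1 mRNA counts in each knockout and 0 or 2 in each control, with footprints of 0 to 4 counts in both groups, and could not be tested.

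The genes whose mRNA varied most like a member over the 8 RiboTag mRNA libraries were, for Stc2, Atp1b4 (Pearson r = 0.994), Prickle1 (0.989) and Gpatch1 (0.987). For Chac1 they were Dtx2 (0.984), Slc12a7 (0.981) and Neu2 (0.977), and for Atf4 Stk11 (0.984), Mrpl12 (0.976) and Mtch2 (0.969). These are descriptions over 8 libraries that hold both genotypes, ranked among 14475 genes.

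Among other genes of the pathway, 1 of 34 other ATF4 targets rose and 2 fell in RiboTag mRNA, where 4.21% of all genes passed. Eif4ebp1, which encodes an inhibitor of the cap-binding factor, rose by 1.25 (adjusted p = 3.51e-05). The alanine transaminase gene Gpt2 (-1.24, adjusted p = 0.000811) and the lipoprotein receptor gene Vldlr (-0.45, adjusted p = 0.0232) fell. The median of these 34 was -0.0114. None of 19 eIF2 kinase and eIF2 machinery genes, 13 aminoacyl-tRNA synthetase genes, 27 endoplasmic reticulum chaperone genes or 13 mitochondrial stress genes passed. Against Cre-negative muscle, where 15.3% of all genes passed, 3 of 35 other ATF4 targets rose and 8 fell, with Eif4ebp1 (0.40), Gadd45a (0.36), Gpt2 (-0.31) and Vldlr (-0.23) having the smallest p. In footprints, where 26.6% of all genes passed, 2 of 32 rose and 7 fell, led by Gpt2 (-0.70), Eif4ebp1 (1.07), Aldh18a1 (-1.24), a proline synthesis gene, and Ddr2 (-1.36), a collagen receptor gene of mesenchymal cells. Translation efficiency was lower for 3 of 34, Ddr2 (-1.51), Aldh18a1 (-0.86) and Pck2 (-1.30), where 9.91% of all genes passed. The knockout libraries also had low endothelial, macrophage and fibroblast footprints, and the part of these in the 3 values was not tested. Of 19 eIF2 kinase and machinery genes 2 rose and 3 fell in footprints (median -0.00135), close to the 26.6% of all genes that passed there. The eIF2B subunit gene Eif2b4 rose by 0.31, another, Eif2b3, fell by 0.31, and the kinase genes Eif2ak3 (PERK) and Eif2ak2 (PKR) fell by 0.95 and 0.45. The part of the low endothelial, macrophage and fibroblast footprints in these falls was not tested.

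Nascent RNA under FX1 asked which genes change in transcription when BCL6 is inhibited in wild-type muscle. Of 8 tested members 1 was raised (Stc2) and 2 lowered (Chac1 and Ddit3), where 20.6% of 15683 genes passed. The median change was 0.143 for the members and -0.00196 for all genes. Stc2 stood at 6.36, 6.50, 6.86, 6.81 and 6.66 with FX1, against 5.74, 5.53, 5.70, 5.71 and 5.75 with DMSO in deposited log2 values. All FX1 animals lay above all DMSO animals, and the rise was 0.95 (SE 0.12, limma adjusted p = 0.000444). The authors' deposited table gives 1.58 for Stc2.

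Chac1 went the other way from its RiboTag change. It had 8.29, 8.44, 7.87, 7.83 and 7.78 with FX1, against 9.20, 9.74, 10.07, 9.09 and 9.62 with DMSO. The groups did not overlap, and Chac1 changed by -1.50 (SE 0.2, adjusted p = 0.000626). Inhibitor and knockout differ in the animals, the time and the RNA measured, and the difference between these changes was not tested. Ddit3 stood at 6.93, 7.54, 7.74, 7.43 and 7.33 with FX1, against 8.36, 8.14, 8.25, 8.02 and 8.22 with DMSO. It fell by 0.80 (SE 0.144, adjusted p = 0.00318), again without overlap. Ddit3 shares its interval with Mbd6 and Mars (Mars1), which changed by -0.75 (adjusted p = 0.0019) and -0.37 (adjusted p = 0.0482). The strand setting of this table is not named, so reads of these overlapping genes may not be told apart and the Ddit3 value is uncertain. The same holds for Atf5, which overlaps Nup62 (-0.54) and Il4i1b, and for Ppp1r15a, which overlaps Tulp2 (-0.38). Il4i1, not itself listed as overlapping Atf5, changed by -0.43.

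Atf3 lay just outside the threshold in nascent RNA. Its values were 8.89, 9.78, 6.97, 7.47 and 7.63 with FX1, against 6.02, 6.77, 6.60, 6.64 and 7.51 with DMSO. FX1 animals 1 and 2 were far above the rest and the groups overlapped, giving a change of 1.44 with an SE of 0.475 (adjusted p = 0.0506). The authors' deposited table gives 1.97 (adjusted p = 0.00072). Over 14 alternative settings the adjusted p ran from 0.0151 to 0.13 and was below the threshold in 4. In these libraries, where 20.6% of all genes passed, 11 of 22 immediate early genes rose and 1 fell. Of 15 muscle fibre markers 7 fell (median -0.732). The part of these genes in the values of Atf3, Chac1 or Stc2 was not tested. Atf4 (0.04), Atf5 (-0.11), Ppp1r15a (0.26) and Asns (0.24) did not pass. Trib3 averaged 2.87 ± 0.142 with FX1 and 2.71 ± 0.0829 with DMSO (SD, n = 5 each), below the filter, and Fgf21 stood at -0.82 in both groups. Of 35 other ATF4 targets 10 rose and 4 fell, where 20.6% of all genes passed, led by Trib2 (-1.27), the mTORC1 brake Ddit4 (2.38), Vegfa (-0.92) and Trib1 (0.78).

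**Figure D4:**
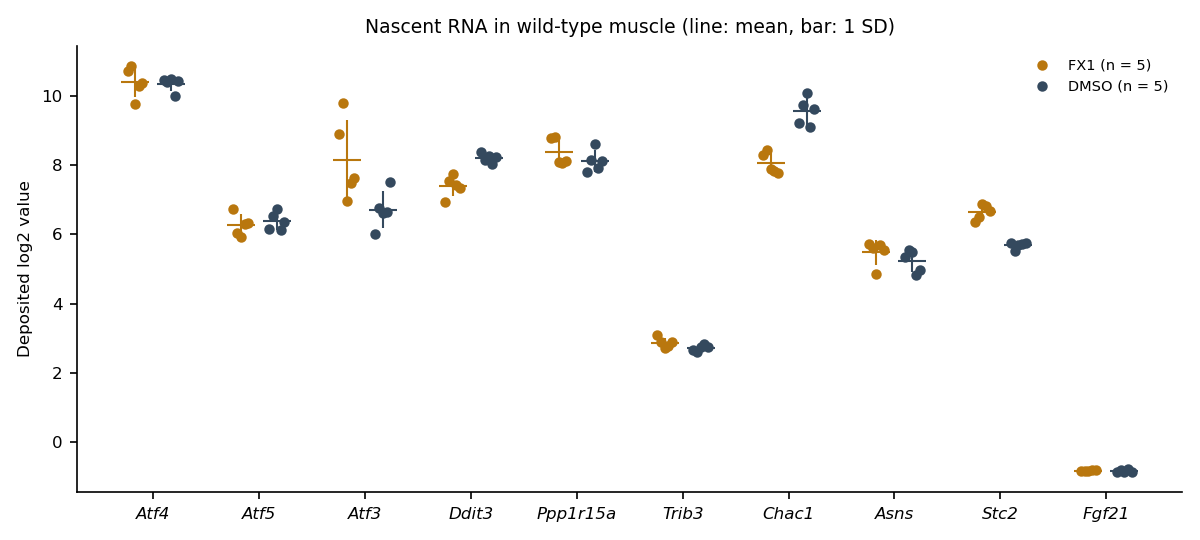
Nascent RNA of the 10 genes in wild-type muscle as the authors' log2 value, 1 point per library with the mean and 1 SD, for 5 FX1 (orange) and 5 DMSO (dark) animals. Stc2 is higher and Chac1 and Ddit3 lower with FX1, with no overlap between groups.

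BCL6 peaks were assigned to 6 of the 10 genes. Stc2 had a peak centred 32 bp upstream of its start (chr11:31369983-31370203, authors' peak score 22.1) and an intergenic one 12091 bp upstream (chr11:31382042-31382262, score 28.2). Promoter peaks were also listed at Atf4 (116 bp upstream, score 67.4), Atf5 (76 bp upstream of its RefSeq start inside the gene, 23.3), Atf3 (164 bp, 13.5) and Ddit3 (641 bp, 14.7). The Atf5 peak lies 924 bp downstream of the gene start in the expression tables, and the authors' annotation calls it the promoter of NM_053074, which is Nup62. With it 5 of 10 members had a promoter peak, where 4.96% of the 24940 genes did. Those 24940 include genes too low to be tested in RNA. By score the Atf3 and Ddit3 promoter peaks ranked 10733 and 10165 of 10925, near the bottom of the list. Atf4 had further peaks 1058 and 4106 bp downstream of its start (scores 35.5 and 36.8), Atf5 one 3283 bp upstream (40.4) and Atf3 one 3407 bp upstream (15.9). The 3 peaks assigned to Chac1 lay 3858, 37161 and 47693 bp downstream of its start (scores 34.3, 46.6 and 90.7), the last a pair inside introns of the neighbouring transcript NM_026574. No peak was assigned to Ppp1r15a, Trib3, Asns or Fgf21. The list comes from 1 library, its scores are the authors' own and their scale is not named. The median score over all peaks was 23.3.

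In windows of 1000 bp on these peaks, measured in animals whose numbers match the poly(A) libraries, 4 of 13 member windows gained acetylation in knockouts. None lost it. Of all 9049 windows tested 18.2% passed, with 1519 raised and 130 lowered, so most calls were gains. Signal summed over all windows was 745335 to 813490 in knockout libraries and 639014 to 697128 in Cre-negative libraries. The median change was 0.134 in the 13 member windows and 0.137 in all windows. The window at the Stc2 start held 132, 143 and 127 tags per 10000000 in knockouts, against 42, 59.3 and 42.5 in Cre-negative controls. It rose by 1.48 (SE 0.157, limma adjusted p = 2.02e-05). The window 12091 bp upstream held 36.6, 47.5 and 43.5 in knockouts, against 12, 14.5 and 13.3 in controls, a rise of 1.60 (SE 0.207, adjusted p = 9.71e-05). Knockouts and controls were far apart at both. At Chac1 the window 3858 bp downstream held 204, 262 and 240 in knockouts, against 186, 151 and 116 in controls (change 0.66, SE 0.151, adjusted p = 0.00761). The window 37161 bp downstream held 169, 203 and 197 in knockouts, against 164, 111 and 87.8 in controls (0.69, SE 0.178, adjusted p = 0.0147). Control Ctr_1898 lay close to the knockouts in both. The last call was lost without control Ctr_1899 or knockout mKO_1900 or mKO_1907 (adjusted p = 0.0711 at most). The windows on the promoter peaks assigned to Atf4 (0.13), Atf5 (-0.10), Atf3 (0.04) and Ddit3 (0.10) did not pass, nor did the Chac1 window 47693 bp downstream (0.37, adjusted p = 0.305), which passed without control Ctr_1898 (0.68). The Atf4 window 1058 bp downstream changed by -0.11 (adjusted p = 0.495) and passed with quantile normalization (-0.29) and with edgeR on recovered reads (-0.27).

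The acute and chronic series show Stc2 acetylation after each interval. Of 30 member regions tested in the acute series 1 passed, where 0.121% of 67871 regions did, and of 29 in the chronic series 2 passed, where 0.179% of 64362 did. All 3 calls were at Stc2. The median member change was 0.177 in the acute series and 0.178 in the chronic series, against 0.00732 and 0.0417 over all regions. In the intronic region centred 466 bp downstream of the Stc2 start (chr11:31369276-31369914) the acute values were 75.6, 54.1 and 80.9 tags per 10000000 in knockouts, against 45.9, 41.7 and 28.1 in controls. The groups did not overlap, but the change of 0.86 did not pass (SE 0.221, adjusted p = 0.136). In the chronic series the values were 110, 106 and 87.9 in knockouts, against 32.1, 6.41 and 16.9 in controls. That is a rise of 2.64 (SE 0.379, adjusted p = 0.00409). The chronic call was lost without any 1 of the knockouts imKO_1794, imKO_1802 or imKO_1803 (adjusted p = 0.129 at most), while the change stayed between 2.58 and 2.73.

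The intergenic region 11760 bp upstream of Stc2 (chr11:31381571-31382071), which overlaps the distal BCL6 peak, was nearly without tags in controls. Its acute values were 20.1, 20.4 and 16.4 in knockouts, against 1.7, 1.74 and 7.93 in controls. The change was 2.30 (SE 0.492, adjusted p = 0.0446), and the call held only without control Ctr_6371 among the 6 libraries left out in turn (adjusted p = 0.299 at most). Chronic values were 17.4, 19.3 and 27.8 in knockouts, against 0, 0 and 2.61 in controls, which are 32, 35 and 44 reads and 0, 0 and 6 reads. The chronic change was 3.85 with a pseudocount of 1 (SE 0.771, adjusted p = 0.0496) and 2.19 with a pseudocount of 5, and the call was lost without any of the 3 knockouts (adjusted p = 0.777 at most). The region 16731 bp upstream changed by 0.32 (adjusted p = 0.913) in the acute and 0.90 (adjusted p = 0.74) in the chronic series. The acute and chronic tables were made from separate animals, and the difference between them was not tested.

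**Figure D5:**
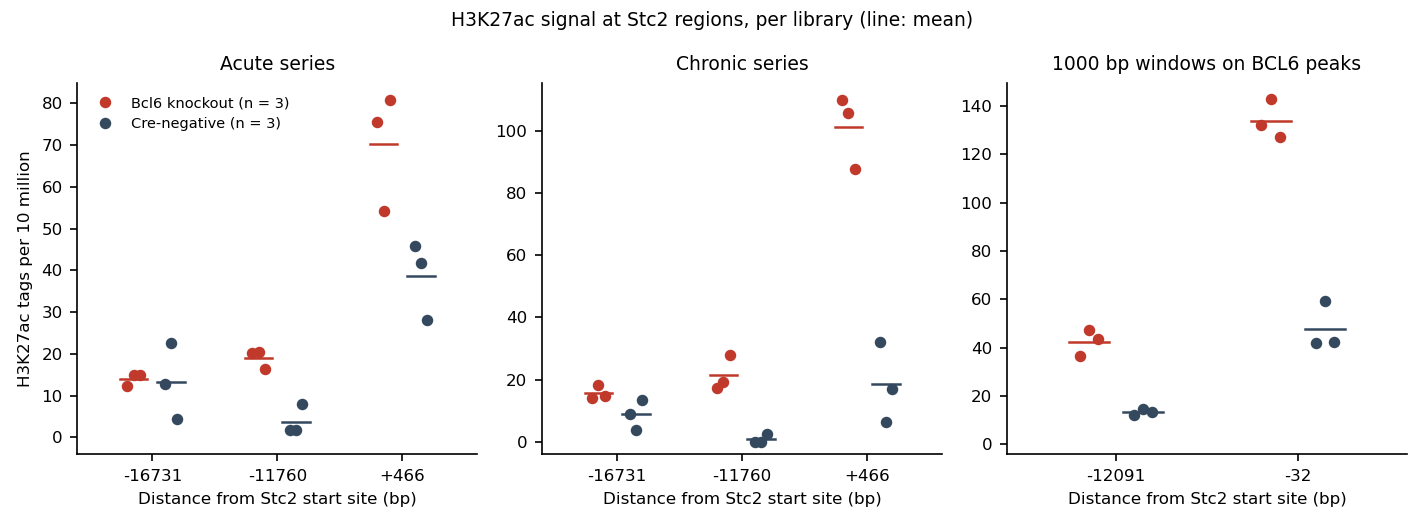
H3K27ac tags per 10000000 at regions assigned to Stc2, by distance from its start site, in the acute series, the chronic series and the windows on BCL6 peaks, 1 point per library with a line at the mean of 3 knockouts (red) or 3 Cre-negative controls (dark). Knockouts lie above controls at every region except the one 16731 bp upstream in the acute series, where they overlap.

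At the other members the acetylated region nearest the start did not pass in either series. The acute and chronic changes were 0.17 and 0.01 at Atf4, 0.32 and 0.21 at Atf5, 0.22 and -0.01 at Atf3, and -0.02 and 0.40 at Ddit3. They were 0.10 and 0.11 at Ppp1r15a, -0.53 and 0.05 at Trib3, 0.38 and 0.77 at Chac1, and -0.07 and -0.58 at Asns, whose nearest region lay 22747 bp upstream. No region was assigned to Fgf21. A region 3441 bp upstream of Atf4, in the end of another gene, changed by 2.34 in the acute series (adjusted p = 0.135) and passed with a pseudocount of 5 (1.40) and with edgeR on recovered reads (2.79). In the chronic series it changed by -0.54 (adjusted p = 0.867), with 6.32 to 7.09 tags per 10000000 in knockouts and 5.65 to 15.7 in controls.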

How the data were processed

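Groups were taken from the labels. The members and the other gene lists were chosen with earlier results of these data known. Per the submitters' processing notes, STAR 2.4.0, Bowtie 1.2, HOMER and DESeq2 1.14.1 were used with build mm10, and no role is named for each. Per the file headers, the poly(A) table was made by the authors from tags in exons on both strands and the nascent table from tags in gene bodies, and both hold log2 values of unnamed transform. The RiboTag table, per its file headers, holds deposited counts of tags in gene bodies with at most 5 tags per position. For H3K27ac the authors deposited a signal, the tags in each region after scaling every library to 10000000. The authors also deposited log2 fold changes, adjusted p-values and, for 1 BCL6 library, a peak score.

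Log2 values were tested here with limma 3.58.1 (trended variance, mean log2 of at least 3.322, a level of 10), and H3K27ac signal as log2(signal + 1) in the same way (at least 10 recovered reads on average). RiboTag counts went into the quasi-likelihood test of edgeR 4.0.16, after TMM scaling and filterByExpr (min.count 10). Translation efficiency is the genotype-by-library-type interaction over 16 libraries. CPM used TMM factors within each library type, and levels per kilobase used exon length. Calls have a Benjamini-Hochberg adjusted p below 0.05 over all features of a comparison. Whether libraries came from separate animals is known only through their numbers, so p-values measure the spread between these libraries. RiboTag titles share an animal number between footprints and mRNA. The correlation of their deviations from the group means ran from -0.027 to 0.349, and 5 of 8 libraries were most like their own number. All 10 members are named, and of each other list at most 4 called genes with the smallest p. Alternatives were no filter, quantile normalization, a common variance prior, a replicate block, DESeq2 1.42.0, RLE scaling, leaving out genes near the position limit, a pseudocount of 5, edgeR on recovered reads and leaving out each library. Fits were tested on simulated data. Versions were matplotlib 3.10.9, scipy 1.17.1, pandas 2.3.3, numpy 2.4.6 and Python 3.11.15, with R 4.3.3. The chronic RNA, input and wild-type H3K27ac libraries were not used here.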

Additional observations from a re-analysis of the deposited data

Results flagged for a closer look

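In 11 of 88 member groups 1 library lay apart from the rest of its group by Dixon's test, where chance marks about 1 in 20 groups. Chac1 was lowest in poly(A) knockout P1896, at 8.74 in the table with Cre-negative controls and 8.70 in the table with oil controls, which hold the same library. Ddit3 was lowest in Cre-negative P1898 at 7.96. In nascent RNA Asns was lowest in FX1 animal 3 at 4.86, Atf4 in DMSO animal 4 at 9.99 and Stc2 in DMSO animal 2 at 5.53, where the low Stc2 value widens the gap between the groups. Among RiboTag footprints Atf4 was highest in knockout RPF_11718 at 122 CPM, Ppp1r15a lowest in knockout RPF_11722 at 26.8 CPM and Asns lowest in control RPF_11734 at 9.29 CPM, the control nearest to the knockouts. In RiboTag mRNA Atf5 was highest in control RNA_11673 at 138 CPM and Ddit3 lowest in control RNA_11745 at 40.5 CPM.

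Asns changed differently in footprints and mRNA of the same animals, with an interaction of -2.09 between genotype and library type.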

How the results depend on the processing

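Over 125 gene or region results and 1372 values under alternative settings, 0 called results changed sign. Of these values, 20 lost the threshold and 13 newly passed it. Without a filter on low values, 1387 genes passed against Cre-negative muscle, against 2096 with it. DESeq2 called 961 genes in RiboTag mRNA, where edgeR called 609, and without genes near the position limit 1 member was called there, since Chac1 is such a gene. With a replicate block 1853 genes passed in nascent RNA in place of 3229, where numbers did not pair the libraries (correlations of -0.429 to 0.175), and 1717 in translation efficiency in place of 1480, and the block changed no member's call. In the acute acetylation series a pseudocount of 5 gave 142 calls and edgeR on recovered reads 179 in place of 82, with 2 member regions called in each, the added one lying 3441 bp upstream of Atf4. In the chronic series a pseudocount of 5 gave 241 calls, quantile normalization 310 and edgeR on recovered reads 390 in place of 115. Recovered reads were whole for 100% of values within 0.05.

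Leaving out 1 library at a time gave 1703 to 1916 calls against Cre-negative (2 to 3 members), 2589 to 3094 against oil (2 to 4 members, 4 without oil P1897), 395 to 826 in RiboTag mRNA (1 to 2 members), 2293 to 3761 in footprints (3 members) and 2192 to 4565 in nascent RNA (3 to 4 members). Translation efficiency gave 310 to 1892 calls (0 to 1 members). Acute acetylation gave 16 to 85 calls (0 to 1 regions), chronic 0 to 405 (0 to 2 regions) and windows 1041 to 1629 (3 to 5 windows). The chronic count was 0 without imKO_1802, 3 without imKO_1794, 6 without imKO_1803 and 405 without Ctr_1801. The lowest counts came without animal RNA_11734 (395 in mRNA and 310 in translation efficiency), RPF_11721 (2293 in footprints), imKO_6346 and imKO_6349 (16 each, acute) and mKO_1900 (1041 windows). Counts moved by over 1.5 times also in RiboTag mRNA without RNA_11735 (398) or RNA_11722 (396), in translation efficiency without animals RNA_11673 (982), RNA_11688 (571), RNA_11735 (551), RNA_11721 (408) or RNA_11722 (373), in the acute series without Ctr_6366 (32) or Ctr_6371 (54), and in windows without mKO_1907 (1059). Asns in translation efficiency rests on 6 to 24 footprint counts per knockout library.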
